A study of Mus musculus with 20 samples.

Results

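The proteasome is the barrel-shaped protease that degrades ubiquitin-tagged proteins in every cell, and in skeletal muscle it carries out much of the breakdown of damaged and myofibrillar protein during wasting. Its core is a stack of alpha rings, which gate the channel, and beta rings, which hold the catalytic subunits Psmb5, Psmb6 and Psmb7. Under interferon these are replaced by the immune subunits Psmb8, Psmb9 and Psmb10, and the core is capped by a regulatory particle, with an ATPase base and a deubiquitinating lid, or by the PA28 and PA200 activators. The proteasome genes described here are all genes whose name on the array is Psma to Psmg followed by a number: 48 names, on 77 spots of which 68 lie inside the array, and 47 names have a spot there. Of these, 41 could be tested, out of 14653 genes tested in all. They comprise 7 of 8 alpha-ring names, 7 of 7 beta-ring names, 3 of 4 immune and thymic beta names, 6 of 9 base names, 6 of 8 lid names, 4 of 4 activators, the inhibitor Psmf1 and 7 of 7 assembly chaperones.

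RNA came from the EDL (extensor digitorum longus), a hindlimb muscle of mainly fast fibres. The 10 mice, male and of strain C57Bl6, were 8 weeks old when adeno-associated virus (rAAV6) was injected into the hindlimb, at 30 µL an injection. The right leg received vectors for HDAC4 with the change D832N and HDAC5 with D861N, at 2.5e+10 vector genomes each, called dnHDAC4/5 here after the word dominant negative in the titles; both are class IIa histone deacetylases, which in muscle hold back the transcription factor MEF2. The left leg of the same animal received an empty vector. After 4 weeks, 5 animals received an intraperitoneal dose of Scriptaid, which inhibits histone deacetylases, and 5 received vehicle, DMSO in phosphate-buffered saline. The 20 arrays thus fall into 4 groups of 5: HS legs had dnHDAC4/5 and Scriptaid, HV legs dnHDAC4/5 and vehicle, ES legs the empty vector and Scriptaid, and EV legs the empty vector and vehicle. The titles of the ES samples say vehicle, and their treatment entries and animal identifiers, which were followed, say Scriptaid. Neither the dose of Scriptaid nor the time to tissue collection is stated in the labels, the labels name no promoter for the vectors, and every leg carried a virus, so no group is untouched muscle. The design asks whether blocking HDAC4 and HDAC5, or inhibiting histone deacetylases with a drug, changes a transcript, and whether the effects modify each other.

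All 41 members gave a clear signal: each was well above background on all 20 arrays and none was saturated on any array. Per array, the 75th percentile of processed intensity ran from 248.4 to 608.1, and the share of spots well above background from 51.7% to 61.3%. The defining markers of fast fibres were bright, with 8 of 10 measured and all 8 saturated on every array. Adipocyte markers (4 of 5 measured) had a median difference of 2.03 for HS against ES and -1.44 for ES against EV, and slow-fibre markers (3 of 5 measured) one of -1.73 for HV against EV and -1.91 for ES against EV. Red blood cell markers (3 of 6 measured) had one of 1.24 for HS against HV and -0.72 for HV against EV. Their summed level (2 genes) was 16.9 on HS 2 and 1.06 to 2.09 on the other HS arrays. It was 11.3 on EV 1 and 0.704 to 1.53 on the other EV arrays. None of these markers passed the test, and their part in the values below was not tested. Near the edge of the array, 15.1% to 23.8% of spots on HS arrays lay more than 1 below their median over the 20 arrays, against 1.36% to 5.84% on the arrays of other groups, so only interior spots are used. The median edge spot was not low on HS arrays, at -0.07 to 0.04. Each value is given as log2 of the processed intensity minus the 75th percentile of that array, and a number of 1 on this scale is a 2-fold difference. Because each gene has its own probe, levels are set side by side only for the same probe, except to give the brightness of probes of a single gene. Each slide held 1 array of every group, and a group had the same place on all 5 slides, so the effects of place and of group cannot be told apart.

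None of the 41 proteasome genes passed the test in any of the 7 comparisons made with limma at an adjusted p under 0.05. For HS against ES, the vector effect under Scriptaid, the background was 3 genes of 14653, or 0.0205%, and the smallest adjusted p of a member was 0.367. For HV against EV, the vector effect under vehicle, the background was 0 genes and the smallest member value was 0.808. For HS against HV, the drug effect in dnHDAC4/5 legs, the background was 1 gene, or 0.00682%, and the smallest member value was 0.462. For ES against EV, the drug effect in empty-vector legs, no gene of any kind passed, and every member had an adjusted p of 1. Averaged over both injections, the vector effect passed for 34 genes (0.232%) and no member, with a smallest member value of 0.301. With each animal as a block, that count was 510 genes, and it was 159 for HS against ES, with no member among them. The interaction of vector and drug, and the comparison of 5 Scriptaid animals with 5 vehicle animals on the mean of their legs (40 members), passed for 0 genes.

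At an unadjusted p under 0.05, 3 of 41 members (7.32%) stood out for HS against ES, 2 higher and 1 lower, against 8.92% of all genes. The same count was 3 of 41 for HV against EV, 1 higher and 2 lower, against 4.85% of all genes. For HS against HV it was 4 of 41 (9.76%), 2 in each direction, against 7.68% of all genes. For ES against EV it was 0 of 41, against 4.07% of all genes. For the vector averaged over both injections it was 7 of 41 (17.1%), 5 higher and 2 lower, against 10.6% of all genes, and no test of that difference was made. For the interaction it was 1 of 41 (2.44%), against 2.16% of all genes, and for the animal means 0 of 40, against 5.32% of all genes.

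The median difference over the 41 members was 0.07 for HS against ES and 0.10 for HV against EV, beside 0.03 and 0.00 over all genes. Without HS 2 the first was 0.18, and without HS 5 it was 0.03. More members lay above 0 than below it, 30 of 41 and 28 of 41 in these comparisons, where 55.7% and 49.9% of all genes did. Within single animals the median over members ran from -0.14 to 0.17 between the legs of Scriptaid animals and from -0.07 to 0.33 between the legs of vehicle animals. These spans include 0 and are wider than the medians, and the members share arrays, so the count above 0 is no independent count. For Scriptaid the medians were 0.01 in dnHDAC4/5 legs and 0.01 in empty-vector legs, beside 0.05 and 0.02 over all genes. Without HS 2 the median in dnHDAC4/5 legs was 0.10. The precision was enough to bound most members: the 95% interval of the difference stayed within 1 log2 unit of 0 for 38 of 41 members in HS against ES, 39 in HV against EV, 40 in HS against HV and 39 in ES against EV. It stayed within 0.5 log2 units for 24, 27, 25 and 29 members in the same order.

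**Figure D1:**
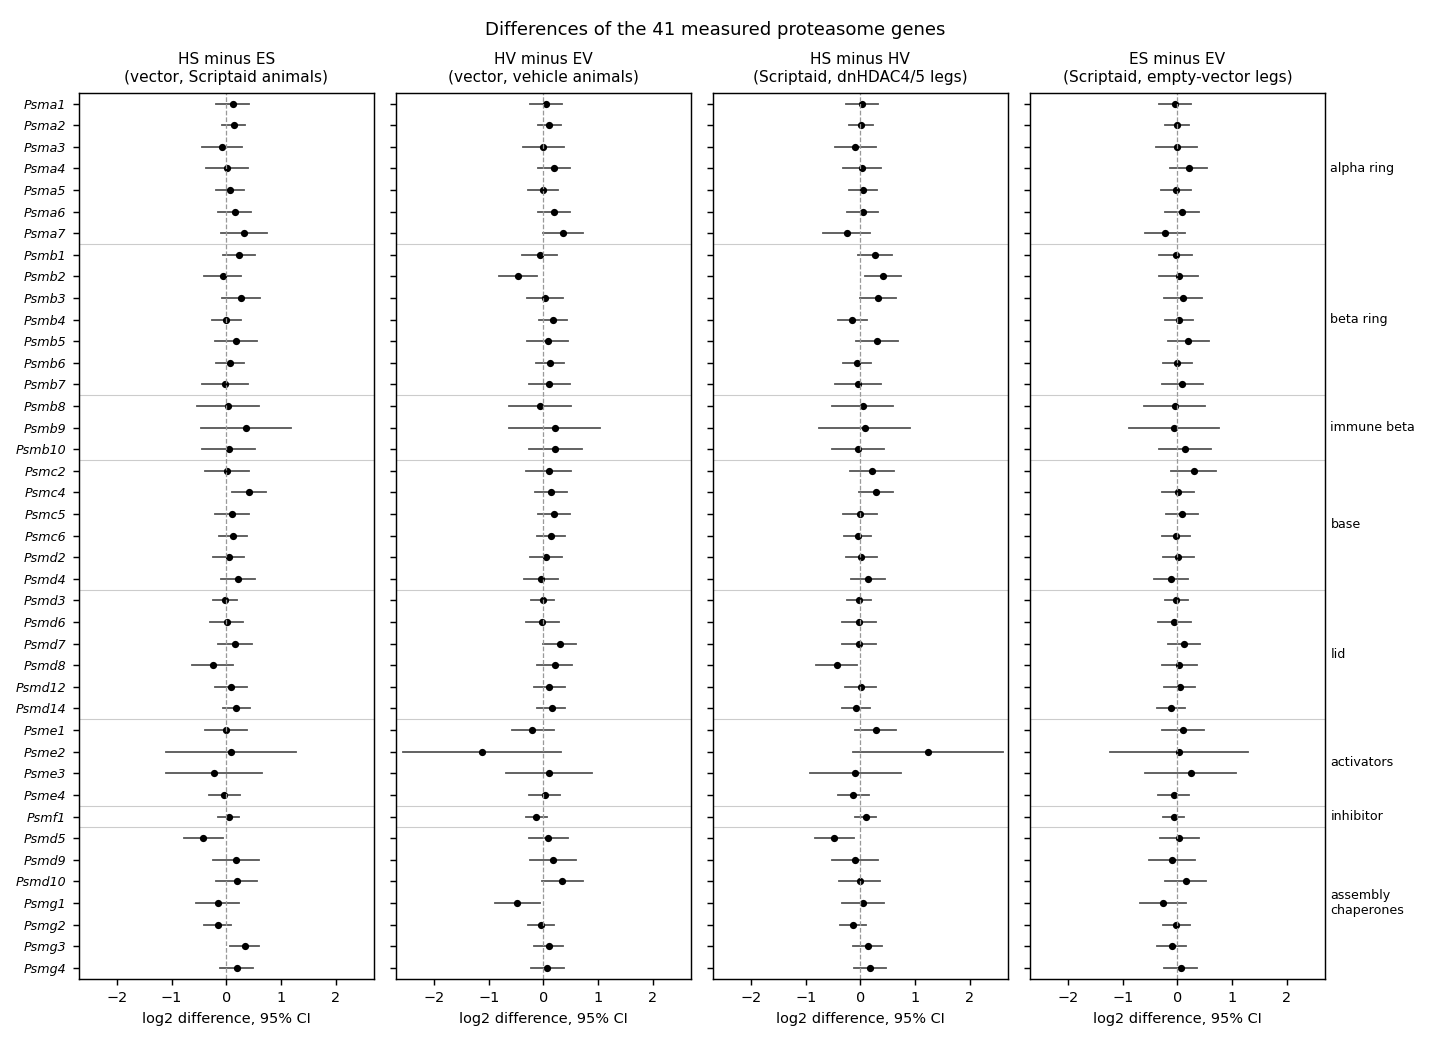
Log2 difference (point) and 95% confidence interval (line) of each of the 41 measured proteasome genes in 4 comparisons, ordered by role from the alpha ring at the top to the assembly chaperones at the bottom. Most points lie within 0.5 of the dashed line at 0, the longest interval in each comparison is that of Psme2, and no gene passed limma's adjusted p.

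The catalytic subunits come in pairs, in which a constitutive subunit and its interferon-induced counterpart take the same place in the ring: Psmb5 and Psmb8 (chymotrypsin-like activity), Psmb6 and Psmb9 (caspase-like), Psmb7 and Psmb10 (trypsin-like). Start-site windows from RefSeq (GRCm38.p6, 250 bases before the start) matched 40 of the 48 names, all but Psma8, Psmb1, Psmb2, Psmb7, Psmc3, Psmd3, Psmd7 and Psmg2. Those of all 5 catalytic genes with a window, Psmb5, Psmb6, Psmb8, Psmb9 and Psmb10, are shown because constitutive and immune genes are known for different control: Nfe2l1 acts through antioxidant response elements on the constitutive ones, and interferon-activated factors act on the immune ones. The windows lie at chr14:54617996-54618245 on the minus strand for Psmb5, chr11:70525107-70525356 on the plus strand for Psmb6, chr17:34197945-34198194 on the plus strand for Psmb8, chr17:34187331-34187580 on the minus strand for Psmb9 and chr8:105938393-105938642 on the minus strand for Psmb10. They are written 5′ to 3′ on the strand of the gene, and capitals mark matches on either strand to the core of the antioxidant response element (TGACNNNGC), the CCAAT box, the interferon-stimulated response element (GAAA, any 2 bases, GAAA) or the gamma-activated site (TTCNNNGAA).
Psmb5: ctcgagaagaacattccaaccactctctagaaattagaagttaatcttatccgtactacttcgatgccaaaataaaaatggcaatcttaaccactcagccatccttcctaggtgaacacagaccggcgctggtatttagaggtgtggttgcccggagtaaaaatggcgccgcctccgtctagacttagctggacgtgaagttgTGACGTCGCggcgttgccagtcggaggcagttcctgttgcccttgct
Psmb6: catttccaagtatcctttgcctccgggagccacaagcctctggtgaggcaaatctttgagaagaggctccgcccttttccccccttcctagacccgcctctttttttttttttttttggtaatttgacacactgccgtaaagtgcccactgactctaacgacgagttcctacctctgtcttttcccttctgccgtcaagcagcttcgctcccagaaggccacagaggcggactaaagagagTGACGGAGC
Psmb8: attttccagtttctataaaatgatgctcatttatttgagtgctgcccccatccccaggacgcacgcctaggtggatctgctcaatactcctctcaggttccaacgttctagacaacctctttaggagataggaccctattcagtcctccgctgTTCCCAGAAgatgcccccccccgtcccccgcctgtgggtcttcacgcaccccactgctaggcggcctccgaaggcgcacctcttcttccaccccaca
Psmb9: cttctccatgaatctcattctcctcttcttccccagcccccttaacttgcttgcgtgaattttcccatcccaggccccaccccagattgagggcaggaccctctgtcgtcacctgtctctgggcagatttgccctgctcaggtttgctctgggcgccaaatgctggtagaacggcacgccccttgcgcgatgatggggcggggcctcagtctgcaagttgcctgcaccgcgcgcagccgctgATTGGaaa
Psmb10: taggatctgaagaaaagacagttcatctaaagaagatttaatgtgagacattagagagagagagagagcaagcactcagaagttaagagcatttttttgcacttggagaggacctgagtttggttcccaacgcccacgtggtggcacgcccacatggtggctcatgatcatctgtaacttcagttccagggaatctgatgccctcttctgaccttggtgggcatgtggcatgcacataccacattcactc
The windows of Psmb5 and Psmb6 each held 1 antioxidant-response core, at bases 204 to 212 and 242 to 250. That of Psmb8 held a gamma-activated site at bases 154 to 162, and that of Psmb9 a CCAAT box on the other strand at bases 243 to 247, and these matches do not overlap another motif. That of Psmb10 held none of the 4 motifs. Over the members with a window, the antioxidant-response core occurred in 5 of 40 (12.5%), against 10.2% of all 32851 windows, the CCAAT box in 14 of 40 (35.0%), against 33.8%, the interferon-stimulated element in 3 of 40 (7.5%; Psmb3, Psmd4 and Psmd9), against 3.0%, and the gamma-activated site in 2 of 40 (5.0%), against 7.0%. The interferon-stimulated element was in 0 of the 5 windows of Psmb8, Psmb9, Psmb10, Psme1 and Psme2. Members are counted by gene, with a match in any window of the gene (43 windows for 40 genes), and the background by window. The shares thus have unlike units, and no difference between them was tested. These matches describe letters in a window and do not show binding.

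Psmb5 read 5.04, 4.54, 5.20, 5.12 and 5.29 in HS legs and 4.78, 4.71, 4.90 and 5.04 in ES legs. It read 4.65, 4.37, 4.99 and 4.95 in HV legs and 4.69, 4.24, 4.98, 4.84 and 4.52 in EV legs. HS 2, replicate 2 of the HS group, was the lowest of its group, and the groups overlap in every comparison. The largest of the 4 single differences was 0.30 ± 0.18 (SE) for HS against HV, with an adjusted p of 0.736, and it was higher in 3 of 4 slides with both values.

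Its counterpart Psmb8 read 0.64, 0.62, 1.11, 0.38 and 1.81 in HS legs and 0.91, 0.31, 1.09, 0.58 and 1.53 in ES legs. It read 0.81, 0.84, 0.85, 0.43 and 1.43 in HV legs and 0.98, 0.69, 0.98, 0.59 and 1.43 in EV legs. The groups lie over each other, and replicate 5 is the highest of every group. The differences were 0.03 ± 0.27 for HS against ES, -0.06 ± 0.27 for HV against EV, 0.04 ± 0.27 for HS against HV and -0.05 ± 0.27 for ES against EV. A second Psmb8 probe gave 0.06 ± 0.28, 0.09 ± 0.28, 0.03 ± 0.28 and 0.05 ± 0.28 in the same comparisons, and replicate 5 was again the highest of every group.

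Psmb6 read 5.29, 4.77, 5.28, 5.21 and 5.35 in HS legs and 5.00, 4.99, 5.19, 5.14 and 5.25 in ES legs. It read 5.39, 5.16, 5.14, 5.28 and 5.23 in HV legs and 5.01, 4.86, 5.32, 5.00 and 5.37 in EV legs. HS 2 is again the lowest of its group, and the 4 groups overlap. Its differences were 0.07 ± 0.12 for HS against ES and 0.12 ± 0.12 for HV against EV.

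The counterpart Psmb9 was the widest-spread immune subunit: it read -1.17, 0.14, 0.46, -0.56 and 1.54 in HS legs and 0.13, -0.50, 0.30, -1.42 and 0.13 in ES legs. It read 0.15, 0.43, -0.27, -0.09 and -0.21 in HV legs and -0.74, 0.17, -0.24, -0.16 and -0.08 in EV legs. The highest and the 2 lowest values fall in Scriptaid animals, and the groups overlap. The difference for HS against ES was 0.36, with a 95% interval of -0.47 to 1.19, which includes a 2-fold rise. That for HV against EV was 0.21, with an interval of -0.62 to 1.04, which also includes a 2-fold rise. For HS against HV the interval, -0.75 to 0.91, did not reach a 2-fold change.

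Psmb7 read 5.15, 4.66 and 5.39 in the 3 HS legs left and 5.06, 4.94, 5.10, 5.04 and 5.31 in ES legs. It read 5.31, 4.83, 4.94, 5.24 and 5.22 in HV legs and 4.57, 4.87, 5.21 and 5.35 in the 4 EV legs left. The 4 groups of Psmb7 overlap, and its differences were -0.02 ± 0.19 for HS against ES and 0.11 ± 0.18 for HV against EV. Its counterpart Psmb10 read 3.79, 3.18, 3.93, 3.54 and 4.29 in HS legs and 3.76, 3.56, 3.40, 3.68 and 4.12 in ES legs. It read 3.95, 3.69, 4.07, 3.73 and 3.50 in HV legs and 3.68, 3.53, 4.07, 3.83 and 2.71 in EV legs. EV 5 was the lowest value of Psmb10, and without it the difference for HV against EV was 0.01, against 0.22 ± 0.23 with it.

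Psme1 and Psme2, the interferon-induced subunits of the PA28 activator, also overlapped between groups. Psme1 read 3.86, 3.12, 3.99, 3.71 and 4.20 in HS legs and 3.84, 3.46, 3.69, 3.89 and 4.05 in ES legs. It read 3.71, 3.28, 3.61, 3.13 and 3.75 in HV legs and 3.80, 3.48, 3.82, 3.47 and 3.89 in EV legs. In the 5 vehicle animals Psme1 was lower in the dnHDAC4/5 leg in 5 of 5, by 0.09 to 0.34, and the fitted difference of -0.20 ± 0.18 had an adjusted p of 1. The brighter probe of Psme2 read 4.21, 4.12, 4.48, 4.08 and 4.54 in HS legs and 4.05, 4.04, 4.39, 4.20 and 4.33 in ES legs. It read 0.29, 4.35 and 4.52 in the 3 HV legs left and 3.76, 4.31, 4.24 and 4.38 in the 4 EV legs left. The single value of 0.29, on HV 1, makes the difference 1.24 ± 0.65 for HS against HV and -1.12 ± 0.68 for HV against EV. The second probe of Psme2, which shares at most 5 bases in a row with the first, read 3.44 on HV 1 and gave -0.30 ± 0.19 and 0.06 ± 0.20 for the same comparisons. The reference annotation lists a related gene, Psme2b, which these probes may not tell apart from Psme2.

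**Figure D2:**
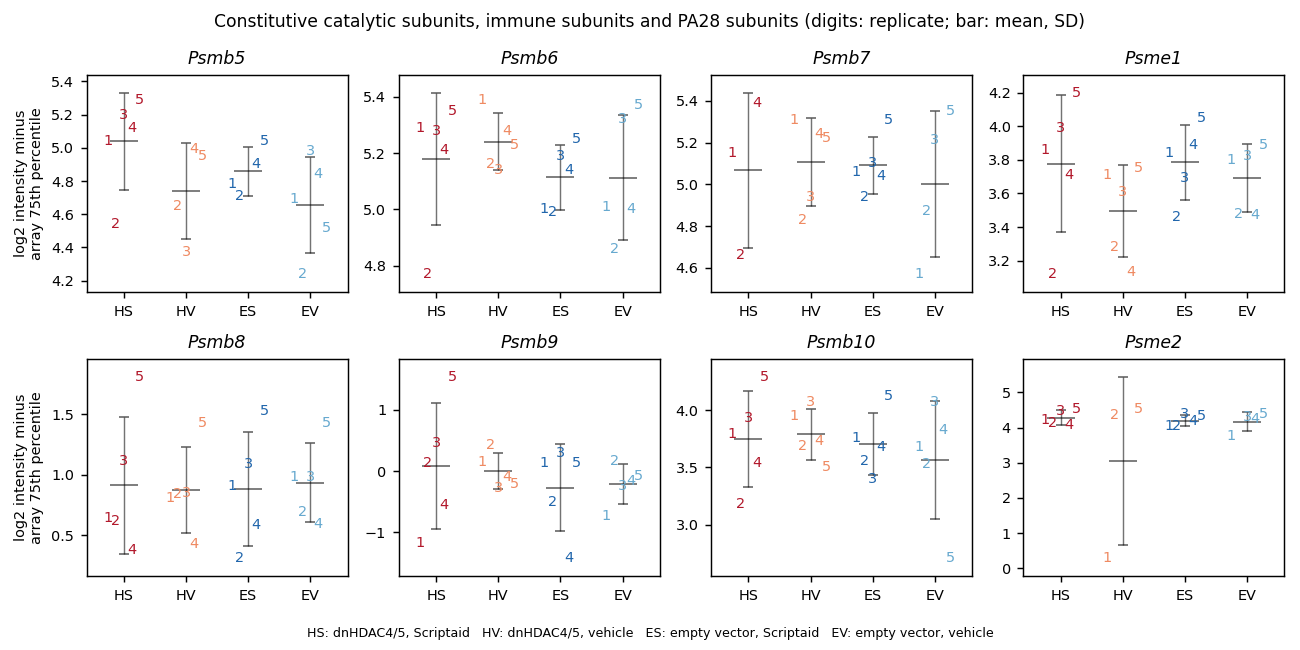
Log2 intensity minus the array's 75th percentile of the constitutive catalytic subunits Psmb5, Psmb6 and Psmb7, their immune counterparts Psmb8, Psmb9 and Psmb10, and the PA28 subunits Psme1 and Psme2, each with its own axis, in the groups HS, HV, ES and EV (digits are replicate numbers, bars the mean and SD). The groups overlap for each gene, replicate 5 is highest for Psmb8 in every group, and Psme2 has 1 value of 0.29 far below the rest in HV.

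In the alpha ring, whose subunits gate the entry to the core, the 7 measured members differed by -0.08 to 0.33 for HS against ES and by -0.01 to 0.36 for HV against EV, with medians of 0.12 and 0.11. Psma7 had the smallest p of the ring. It read 5.22, 5.35 and 5.45 in the 3 HS legs left and 4.55, 4.81, 5.38, 4.90 and 5.42 in ES legs. It read 5.73, 5.49, 5.51, 5.75 and 5.48 in HV legs and 5.11, 5.17, 4.82, 5.53 and 5.53 in EV legs. The dnHDAC4/5 legs had the higher value in 6 of 8 animals with both, and the vector difference averaged over injections was 0.34 ± 0.13 with an adjusted p of 0.329. The 3 HS values lay below all 5 HV values, the nearest being 5.45 and 5.48. The difference for HS against HV was -0.25 ± 0.20, at an adjusted p of 0.797. Psma7 was thus the 1 of 41 members whose groups did not overlap in HS against HV, where 1.15% of all genes did not overlap. Groups with fewer values left separate more easily. In the other 3 single comparisons 0 members were free of overlap, against 2.40% of all genes for HS against ES, 0.648% for HV against EV and 1.11% for ES against EV. Psma3 was measured by a dim interior probe (mean -0.70), since its brighter probe (mean 4.30) lies at the edge. The 2 probes are annotated to different transcripts, so the values of Psma3 need not stand for the transcript of the brighter probe.

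In the beta ring Psmb2, a subunit without catalytic activity, had the smallest p. It read 1.13, 1.47, 0.86, 1.56 and 1.83 in HV legs and 1.52, 1.93, 1.90 and 1.98 in the 4 EV legs left. It read 1.87, 1.47, 1.96, 1.86 and 1.78 in HS legs and 1.67, 1.80, 1.99, 1.99 and 1.85 in ES legs. The HV legs reached lower than the other groups, with HV 1 and HV 3 below all other values. The difference was -0.46 ± 0.17 for HV against EV, lower in 4 of 4 animals with both legs, at an adjusted p of 0.808. In Scriptaid animals it was -0.07 ± 0.16, and the interaction of 0.39 ± 0.23 had an adjusted p of 1. The other structural subunit among the low unadjusted p-values was Psmb3, which differed by 0.33 ± 0.16 for HS against HV at an adjusted p of 0.649. Its second probe gave -0.10 ± 0.14 for the same comparison, the opposite sign.

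In the base, which unfolds substrates and feeds them into the core, the 6 measured members differed by 0.02 to 0.42 for HS against ES and by -0.04 to 0.19 for HV against EV. Psmc4, an ATPase of the base, led it. It read 4.63, 4.11, 4.82 and 4.87 in the 4 HS legs left and 4.11, 4.13, 4.25, 4.18 and 4.26 in ES legs. It read 4.52, 4.04, 4.21, 4.43 and 4.38 in HV legs and 4.12, 3.93, 4.26, 4.13 and 4.45 in EV legs. In HS legs 3 of 4 values exceeded every ES value, and HS 2 equalled the lowest ES value. The difference of 0.42 ± 0.15 for HS against ES was higher in 3 of 4 animals with both legs and had an adjusted p of 0.367, or 0.0922 with the animal as a block. With normexp background correction it was 0.04, at an adjusted p of 0.999. As the mean of all probes of the gene it was 0.17, but the brighter probe was left out on HS 5. That array entered with the dimmer probe alone, at 3.03, so the 0.17 is not the average of the differences of the probes. The dimmer interior probe of Psmc4 gave 0.23 ± 0.11 for the same comparison. Psmc2, Psmc5 and Psmd2 were read from interior probes that are dimmer than an edge probe of the same gene. For Psmc2 the interior probe had a mean of -3.17 and the edge probe one of 5.46, and they are annotated to different transcripts. The values of Psmc2 thus need not stand for the transcript of its brighter probe.

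In the lid, which removes ubiquitin chains through Psmd14, the 6 measured members differed by -0.25 to 0.18 for HS against ES and by -0.02 to 0.30 for HV against EV. Psmd14 itself differed by 0.16 ± 0.09 when the vector effect was averaged over injections, at an adjusted p of 0.525. Psmd8 had the smallest p of the lid. It read 4.04, 3.58 and 4.24 in the 3 HS legs left and 4.70, 4.21, 4.08, 4.65 and 4.28 in HV legs. It read 4.21, 4.21, 4.23, 4.01 and 4.37 in ES legs and 3.98, 4.08, 4.15, 4.52 and 4.14 in EV legs. HS 2 was the lowest value of Psmd8 and the groups overlap. The difference of -0.43 ± 0.18 for HS against HV was lower in 3 of 3 slides with both values, at an adjusted p of 0.569. Psmd7 differed by 0.30 ± 0.14 for HV against EV, higher in 5 of 5 animals by 0.04 to 0.61, at an adjusted p of 1, and its second probe gave 0.14 ± 0.14.

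Among the assembly chaperones, which help build the core and the base and are not part of the finished particle, Psmd5 had the smallest p. It read 0.13, 0.71, 1.12, 0.62 and 0.12 in HS legs and 0.51, 0.89, 1.17, 1.04 and 1.19 in ES legs. It read 1.13, 0.90, 1.04, 1.02 and 1.00 in HV legs and 0.83, 0.72, 1.11, 0.96 and 1.01 in EV legs. HS 1 and HS 5 were the lowest of all 20 values. Psmd5 differed by -0.42 ± 0.17 for HS against ES, lower in 5 of 5 animals, at an adjusted p of 0.462, and by -0.48 ± 0.17 for HS against HV, also at 0.462. The interaction, -0.51 ± 0.24, had an adjusted p of 1. Single spots on HS arrays also read low elsewhere: the second probe of the chaperone Psmd9 read -6.76 on HS 3 and -6.16 on HS 5, against -0.02 to 0.69 on the other 18 arrays, and the part of such spots in the value of Psmd5 was not tested. Psmg3, a chaperone of the alpha ring, differed by 0.34 ± 0.13 for HS against ES, higher in 5 of 5 animals by 0.16 to 0.66, at an adjusted p of 0.383. Psmg1, whose product works in a pair with that of Psmg2, differed by -0.48 ± 0.20 for HV against EV and by -0.32 ± 0.14 when averaged over injections, at adjusted p-values of 0.895 and 0.394. EV 4, at 2.19, was the highest value of Psmg1, and the other 18 arrays lay between 0.49 and 1.29. Psmd10, known as gankyrin, differed by 0.27 ± 0.13 when averaged over injections, at an adjusted p of 0.455.

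**Figure D3:**
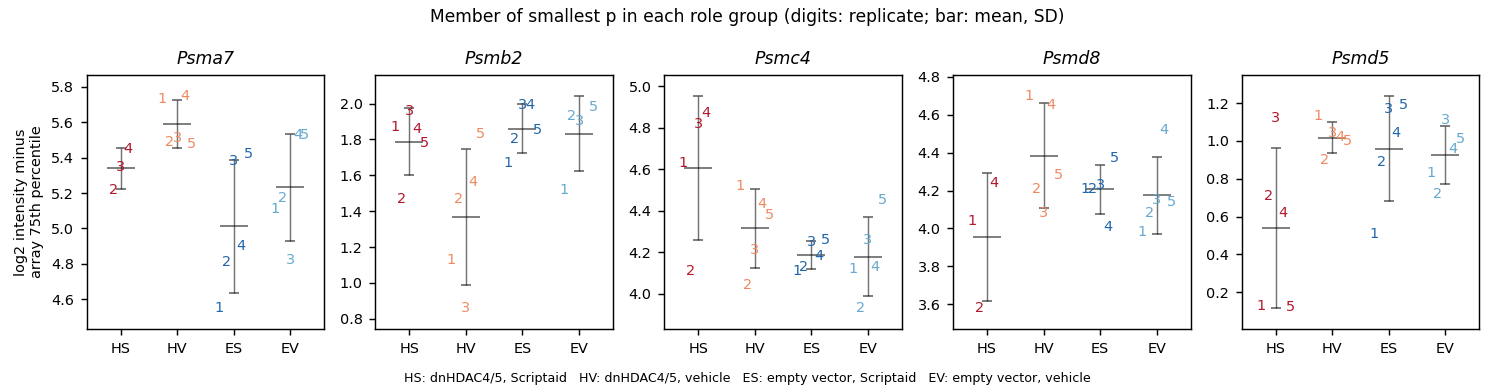
Log2 intensity minus the array's 75th percentile of the member with the smallest p in the alpha ring (Psma7), beta ring (Psmb2), base (Psmc4), lid (Psmd8) and assembly chaperones (Psmd5), each with its own axis, in the groups HS, HV, ES and EV (digits are replicate numbers, bars the mean and SD). The 3 HS values left for Psma7 lie below its 5 HV values, the nearest being 5.45 and 5.48, and the difference did not pass the test. The HV values of Psmb2 and the HS values of Psmd5 reach below those of the other groups.

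The remaining regulators were Psme3, the nuclear PA28-gamma activator, Psme4 (PA200) and the inhibitor Psmf1 (PI31). Psme3 differed by -0.23 ± 0.41 for HS against ES and 0.10 ± 0.37 for HV against EV. Psme4 differed by -0.04 ± 0.14 and 0.03 ± 0.14 in the same comparisons. Psmf1 was the steadiest member, with an SD within groups of 0.11, and differed by 0.04 ± 0.09 and -0.13 ± 0.09. Its other interior probes gave 0.48 ± 0.15 and 0.86 ± 0.32 for HS against HV, where the brightest gave 0.10 ± 0.09, and none passed the test. The probe that gave 0.86 was well above background on only 7 arrays and read highest on HS 2, at -2.84. For 14 members the brightest probe was set against a single other tested probe. The signs were opposite for 5 in HS against ES, 6 in HV against EV, 6 in HS against HV and 5 in ES against EV. Further probes of Psmd12, Psme4 and Psmf1 were not counted. In ES against EV a further probe of each was opposite to the brightest, at -0.11 ± 0.15, 0.24 ± 0.15 and 0.08 ± 0.15. That of Psmd12 was also opposite in HS against ES (-0.02 ± 0.15) and HS against HV (-0.23 ± 0.15). The probes of Psma3, Psmd9, Psme2, Psme4 and Psmf1 differed by more than 0.5 in HS against HV.

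Of the 48 names, 7 were not tested. The testis subunit Psma8 and the thymus subunit Psmb11 were well above background on at most 2 arrays. The ATPases Psmc1 and Psmc3 and the scaffold Psmd1 kept only 2 HS arrays after spots marked as uneven or outlying were left out. With those spots kept, their differences for HS against ES were -0.08 ± 0.18, 0.29 ± 0.17 and 0.13 ± 0.14, and none passed the test in any comparison. The lid subunits Psmd11 and Psmd13 had a usable probe only at the edge. The edge probe of Psmd11 read 5.94, 5.20, 5.72, 5.86 and 6.13 in HS legs and 5.06, 5.05, 5.07, 5.04 and 5.11 in ES legs. It read 5.40, 5.15, 5.33 and 5.26 in the 4 HV legs left and 4.99, 5.00 and 5.20 in the 3 EV legs left. All HS values lay above all ES values. In a fit with edge spots included, its difference for HS against ES was 0.70 ± 0.14 with an adjusted p of 0.0198, and it was the 1 member of 43 that passed, where 195 of 15722 genes (1.24%) did. On HS arrays 15.1% to 23.8% of edge spots lay more than 1 below their median, against 1.36% to 5.84% on the other arrays. More than 1 above it lay 1.76% to 6.59% on HS arrays and 1.17% to 4.93% on the others. The part of the edge in the value of Psmd11 was not tested. The interior probe of Psmd11 was well above background on 0 arrays. Psmd13, whose edge probe reached -3.58 on ES 5, differed by 0.61 ± 0.75 in the same comparison.

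The median SD within groups was 0.21 over the 41 members and 0.31 over all genes, a description only, since probes differ in brightness. The alpha ring, base and lid each had a median of 0.21, the immune beta subunits 0.44 and the activators 0.46. The constitutive subunits of both rings, base and lid (26 genes) had a median deviation from the mean of each gene that was lowest on HS 2, at -0.23, and highest on HS 5 and HV 1, at 0.23 each. On slide 2 it was -0.23 in HS, -0.09 in HV, -0.13 in ES and -0.20 in EV, below 0 in every group. The median over all genes on these 4 arrays lay between -0.04 and 0.00, which the scaling of each array holds near 0, and no test of the shared variation was made.

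A test of the 5 slides, with group in the fit, was chosen after the values were seen, and it passed for 3 of 41 members (7.32%), where 9.60% of all genes passed. Slide and replicate number are the same thing here, so array processing and the animals that share a number cannot be told apart. Psmb8 passed with an adjusted p of 0.00152, and its slide means relative to its overall mean were -0.07, -0.28, 0.11, -0.40 and 0.65 for slides 1 to 5. Psme1 passed with an adjusted p of 0.0308 and slide means of 0.11, -0.35, 0.09, -0.14 and 0.29. Psme3 passed with an adjusted p of 0.00122 and slide means of -0.57, 0.38, -0.09, 0.78 and -0.53, a different order of slides. The summed linear level of the interferon and antigen-presentation list (14 genes) was also highest on slide 5, at 67.4 to 87.8 against 47.5 to 66.3 on the other slides. The brightest genes weigh most in such a sum, here H2-K1 and H2-D1, and both were highest on slide 5 in every group. Not every gene of the list was highest there. Ifi44 was lowest on slide 5 in HV (-3.67) and ES (-5.01), and Ifit1 in EV (-6.32). Leukocyte markers (11 of 16 measured, 10 summed) summed to 8.89 to 12.7, 4.6 to 19.9 and 7.3 to 11.2 on slides 1 to 3. They summed to 4.34 to 6.79 on slide 4, where Psmb8 was lowest, and to 9.08 to 14.4 on slide 5. HS 2 had the highest single sum, 19.9. The part of leukocytes in the level of Psmb8 was not tested. In whole muscle, fewer cells of a type and less RNA per cell cannot be told apart.

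**Figure D4:**
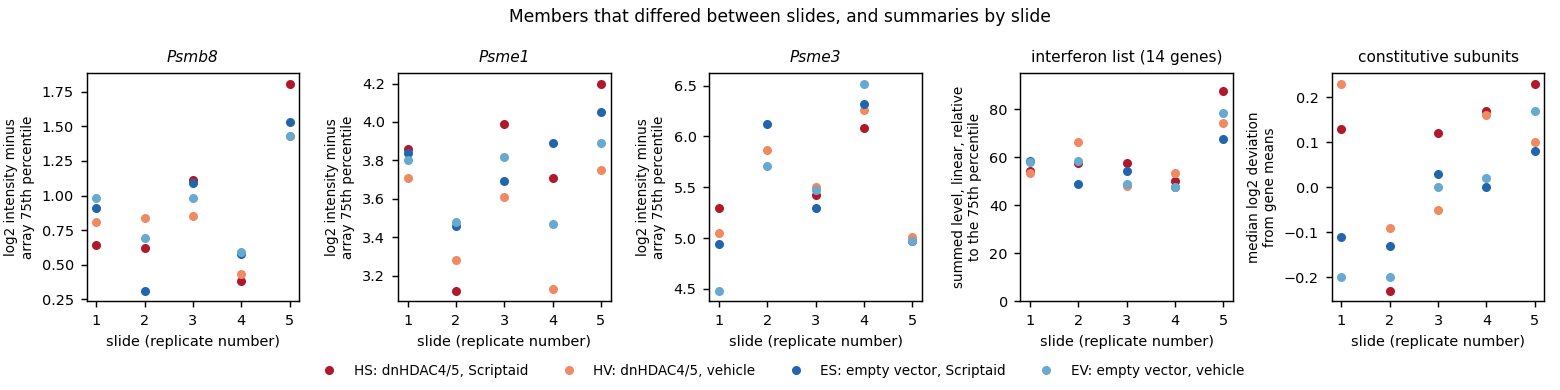
By slide (the replicate number, 1 to 5), the log2 levels of Psmb8, Psme1 and Psme3, the summed linear level of 14 interferon and antigen-presentation genes, and the median log2 deviation of the 26 constitutive subunits, with 1 point per array coloured by group. Psmb8 and the interferon sum, in which the brightest genes weigh most, are highest on slide 5 in all 4 groups. Psme3 is highest on slide 4, and the constitutive subunits are below 0 in all groups on slide 2.

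Of 30 further genes of the ubiquitin-proteasome pathway (ubiquitin genes, shuttle factors, associated proteins and the Nfe2l1 axis), 25 were measured and none passed in any comparison. For the vector averaged over injections their median was 0.06, with 16 of 25 above 0, and 6 (24.0%) had an unadjusted p under 0.05, 3 in each direction. Over all genes the median was 0.02, 54.1% lay above 0 and 10.6% had such a p. Nfe2l2, the oxidative-stress factor that binds antioxidant response elements, led them with 0.25 ± 0.08 at an adjusted p of 0.161. Ddi2, the protease that activates Nfe2l1, differed by -0.32 ± 0.10 at an adjusted p of 0.196. For HS against ES these genes differed by 0.33 ± 0.11 and -0.33 ± 0.14. For Scriptaid in empty-vector legs the leaders were the proteasome maturation factor Pomp, with -0.13 ± 0.12, and Shfm1, a lid-associated factor, with -0.15 ± 0.15. Of the 20 genes of the interferon list 15 were measured, 0 passed in any comparison, and Ifi44 led with 0.86 ± 0.34 for HS against ES at an adjusted p of 0.438. Ifi44 read -5.01 on ES 5, and without that array the difference was 0.50 ± 0.27, at an adjusted p of 0.691. The summed level of that list was 50.1 to 87.8 in HS, 48.0 to 74.2 in HV, 47.8 to 67.4 in ES and 47.5 to 78.6 in EV legs.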

How the data were processed

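Total RNA was labelled with Cy3, from 100 ng per array, per the labels' protocols. Per the file headers and the submitters' processing notes, Agilent Feature Extraction 9.5.1.1 subtracted background and wrote the deposited processed intensity per spot. The ratio in the deposited series matrix equals that intensity divided by a constant of each array, and served as an alternative. The build behind the probes is not given in the sources used here.

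The log2 intensity minus the array's 75th percentile of the 43379 non-control spots was computed from the deposited values. Spots marked non-uniform or outlying (12539 over all arrays) and spots outside columns 1 to 77 and rows 11 to 522 were left out, and spots of 1 probe averaged. A probe needed to be well above background on 5 arrays, with 3 arrays left per group (21199 probes). Each gene was represented by its brightest probe. Gene names are those of the files; 66 of 77 member spots matched a RefSeq accession, with 0 symbols changed.

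Group means of 20 arrays were fitted with limma 3.58.1 (R 4.3.3), two-sided, adjusted by Benjamini-Hochberg over 14653 genes, and animal means likewise. The fit of the 20 arrays treated the legs of an animal as independent, so its standard errors, intervals and p-values leave out the pairing. The animal block, with a consensus correlation of legs of 0.35, was an alternative. The script was tested on simulated data. Replicates are separate animals, per the labels. Legs pair by animal, per the labels: the correlation of their deviations was 0.02 to 0.43 in vehicle and 0.22 to 0.41 in Scriptaid animals. Between different animals on the same slide it was 0.15 to 0.29 for ES and EV and 0.04 to 0.41 for HS and HV. The legs of an animal also share a slide, so these values do not by themselves show the pairing. Genes given in full are the immune subunits, their constitutive counterparts and the smallest p of each role group; other pathway genes are the 2 of smallest p. Members and lists were chosen with earlier results of these data known. Alternatives covered background correction, scaling, filters, spots, probes, blocks and single arrays.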

Additional observations from a re-analysis of the deposited data

Results flagged for a closer look

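In 52 groups of 4 or 5 arrays, 2 had an array standing apart from its group. Chance flags about 1 in 20 groups, so this count is no more than chance gives. Both flags fell on HS 2 and Psmb6 is among the members, so they are not independent. Groups with fewer arrays left, among them HV for Psme2, were not examined. Psmb6 read 4.77 on HS 2, against 5.21 to 5.35 on the other 4 HS arrays. The median deviation of the 41 members was -0.26 on the same array, against 0.10 to 0.21 on the other 4. HS 2 also had the highest summed level of red blood cell markers, 16.9 against 1.06 to 2.09 on the other HS arrays. Its leukocyte sum was the highest too, 19.9 against 5.16 to 14.4 on the other HS arrays. On EV 2, HV 2 and ES 2 the median deviation of the members was -0.19, -0.08 and -0.12. Red blood cell sums there were 1.35, 1.35 and 1.63, and leukocyte sums 9.82, 11.2 and 4.6. EV 1 had the next highest red blood cell sum after HS 2, 11.3, and a median deviation of the members of -0.19. The part of these markers in the low values was not tested.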

How the results depend on the processing

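The count of members that passed was 0 in all 7 comparisons under every alternative and every left-out array or animal, except that edge spots gave 1 (Psmd11) for HS against ES. Under normexp background correction the members' median was 0.33 for HV against EV, 0.31 for ES against EV, 0.24 for the vector average, -0.23 for the interaction and 0.18 for the Scriptaid animal means, where all genes had -0.07, -0.07, -0.01, 0.15 and -0.01; the cause was not tested. The other alternatives moved no median by more than its spread over slides; leaving out HS 2 gave 0.18 for HS against ES and 0.10 for HS against HV.

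Of single members, Psmb8's interaction was -0.01 with series matrix values and -0.14 to 0.25 without 1 array, Psmb7 for HV against EV -0.04 to 0.22, and Psme2 for HS against HV -0.34 to 1.29, or -0.30 by its second probe, an alternative chosen after seeing the data, as was leaving ES 5 out for Ifi44. Without an HV array used by the first Psme2 probe too few are left, and the second probe takes its place. Normexp also gave 0.04 for Psmc4 (HS against ES, 0.42 as reported), -0.22 for Psmb2 (HV against EV, -0.46), 0.51 for Psmb10 (HV against EV, 0.22) and 0.35 for Psmb6 (vector average, 0.10). No member passed with the replicate block or the animal block; the lowest adjusted p was 0.0756 (Psmc4, vector average, animal).

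Counts over all genes moved more. For HS against ES, 3 genes passed, against 0 to 195 (edge spots 195, animal block 159, quantile 7, matrix 1, replicate block 2), and 0 to 6 without 1 array. For HS against HV, 1 passed, against 0 to 202 (edge spots 202, replicate block 18, mean of probes 3), and up to 31 without HS 2. For the vector average 34 passed, against 5 to 510 (normexp 5, no filter 11, array median 21, quantile 91, matrix 123, replicate block 133, edge spots 172, animal block 510), 11 without HV 1 or HV 2 and 212 without HV 5. Edge spots gave 28 for the interaction and 32 for animal means, where 0 passed; HV against EV had 0 to 4 (animal block 4) and ES against EV 0 to 1.

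Precision is limited by 5 arrays a group, fewer where spots were left out, and by 1 probe per gene.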
